A study of Homo sapiens with 4 samples.

Results

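The genes described here handle copper in the cell: the importers SLC31A1 and SLC31A2, the copper-pumping ATPases ATP7A and ATP7B, the chaperones ATOX1, CCS and COX17, and the metallothioneins MT2A, MT1X and MT1E. They were measured by PAS-seq, a method that reads the 3′ end of each polyadenylated transcript and so records both how much of a transcript is present and where it was cleaved. KYSE30 and TE-1 are established lines of esophageal squamous cell carcinoma (ESCC). Each line gave 1 library of cells kept in 20 mM l-lactate for 24 h and 1 control library of cells given PBS, so there were 4 libraries in all. For the 2 controls a label field gives KYSE32 and TE-3, against KYSE30 and TE-1 in the titles and the study's methods, and the titles were followed. A poly(A) site cluster (PAC) was given to a gene when its dominant site, the base with the most tags, lay in the same-strand GENCODE 44 span of that gene. By this rule 9 of the 10 genes had a PAC, and they held 12 of the 17627 PACs. ATP7B had no PAC in any library.

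Copper enters the cell mainly through SLC31A1 (also called CTR1) and is passed from hand to hand by small chaperone proteins, since free copper ions are toxic. ATOX1 brings copper to ATP7A and ATP7B, which load copper enzymes in the Golgi and pump excess copper out. CCS loads superoxide dismutase SOD1, and COX17 delivers copper inside mitochondria for cytochrome c oxidase. Metallothioneins are short cysteine-rich proteins that bind zinc and copper, and their genes are known to be switched on by metals through the factor MTF1. Cuproptosis, the cell death studied in this series, follows from copper binding to mitochondrial proteins.

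Values are tags per 1000000 tags of the library (RPM), summed over the PACs of a gene, and they need no length correction because each transcript is read at its end. Where a pair of values is given for a line, that of the l-lactate library comes first and that of the control next. The libraries held 7174991 to 10393799 tags, and the lowest RPM listed was between 1.06 and 1.12. Sums counted an unlisted PAC as 0, although such a PAC need not be low. Intervals on ratios, levels and shares are 95% intervals that cover counting error only, without amplification or variation between cultures. The RNA came from whole cultures, so that fewer cells of a kind and less RNA per cell cannot be told apart. Of 8 squamous markers 4 were listed in any library, and TP63, KRT5, KRT14 and DSG3 were listed in none. The markers that were listed differed by line: KRT6A and SOX2 were listed in KYSE30 cells only, KRT17 in TE-1 cells only, and CDH1 was at 228.0 and 204.3 RPM in KYSE30 and at 1.30 and 0 in TE-1. Their summed level was 393.0 to 488.4 RPM in KYSE30 and 188.1 to 244.7 in TE-1 cells. Of 6 markers of other cells only COL1A1 was listed, at 4.84 and 5.39 RPM in TE-1 cells, while the leukocyte, endothelial, muscle and hepatocyte markers were at 0. What part these differences have in the line comparisons was not tested.

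The metallothioneins MT2A and MT1E were the most abundant of the 9 genes in every library, and the importers and pumps were far lower. The order from the top was MT2A, MT1E, ATOX1 and COX17 in KYSE30 cells, with ATOX1 and COX17 exchanged in TE-1 cells. SLC31A1, CCS and ATP7A followed in that order in every library. The lowest places went to SLC31A2 and MT1X, whose counting intervals overlapped in every library but the KYSE30 control. The intervals of ATP7A and SLC31A2 also overlapped in both KYSE30 libraries, so that these neighbours were not told apart there.

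**Figure D1:**
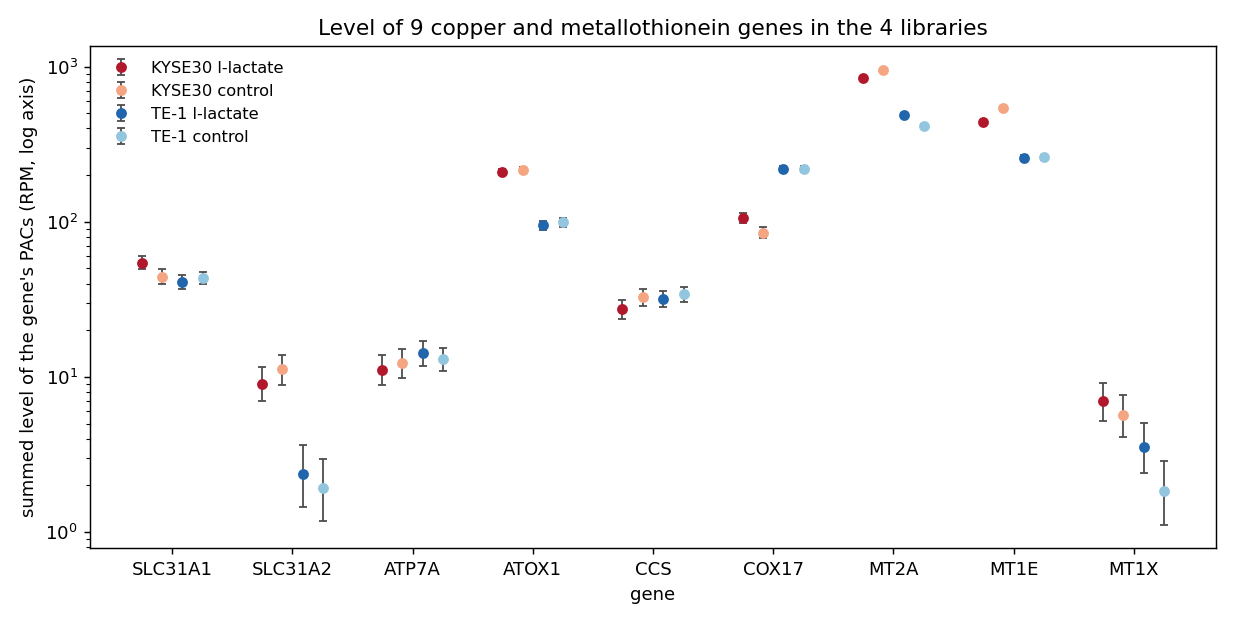
Level of each gene in each library (RPM on a log axis), with exact Poisson 95% intervals of the tag counts. ATOX1, SLC31A2, MT2A and MT1E lie higher in both KYSE30 libraries (red shades) than in both TE-1 libraries (blue shades), and COX17 lies higher in TE-1, at 218.5 and 220.1 RPM.

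The line comparison asked which copper genes differ between the ESCC lines. ATOX1, SLC31A2, MT2A and MT1E were higher in KYSE30 cells, and COX17 was higher in TE-1 cells. SLC31A1, ATP7A and CCS did not pass the test. The fit (limma on log2(RPM + 1), with terms for line and treatment, Benjamini-Hochberg adjustment over 9778 genes) covered 8 of the 10 genes, since MT1X lay under the mean of 5 RPM required and ATP7B had no PAC. SLC31A2 passed that filter only through its KYSE30 libraries. Of the 8 genes, 4 were called higher in KYSE30, against 36.5% of all genes tested, and 1 higher in TE-1, against 36.2%. Most genes at large differed between the lines, and these counts are to be read against that. The libraries of the lines did not overlap for 7 of the 8 genes, against 85.3% of all genes. Nothing in the labels says that the libraries of a line came from separate cultures. Each line and condition had 1 library, so no spread among like libraries was measured. The 1 residual degree of freedom of the fit is how far KYSE30 and TE-1 disagree in their change with treatment. It was moderated by a prior of 6.58 degrees of freedom. The SEs, intervals and p-values of both comparisons rest on this and not on replicates.

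SLC31A1, the main copper importer, did not pass the test between the lines. It was at 54.6 and 44.3 RPM in KYSE30, and at 40.9 and 43.6 in TE-1 cells. Both KYSE30 libraries lay above the TE-1 libraries, but the KYSE30 control did so by less than counting error. The line difference was 0.22 ± 0.12 (SE) on the log2 scale (4 libraries), with a 95% interval of -0.07 to 0.50 and a limma adjusted p of 0.144.

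SLC31A1 ended at 2 sites in its last exon, exon 5 of 5, with 3′ UTRs of 1075 and 4019 nt, and both carried the canonical poly(A) signal. The 30 bases that end at each site are shown because the 2 sites decide which 3′ UTR the importer's mRNA carries. Capitals mark the signal nearest the site, on the plus strand of GRCh38, at chr9:113261519-113261548 for the proximal and chr9:113264463-113264492 for the distal site.
SLC31A1 proximal: atatttttaAATAAAaccattcacagttta
SLC31A1 distal: caaAATAAAtattttgattttgtgattcta
The signal ended 15 and 21 bases before the cleavage site. All tags of the proximal PAC lay on 1 base, whereas the dominant base of the distal PAC held 61.1% to 67.3% of its tags over a width of 10 bases. TGTA, the motif bound by NUDT21, the factor this study is about, occurred 2 times in the 100 bases before the distal site and not in those before the proximal site.

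The distal site was the main one in every library. Its share of the gene's tags was 77.3% (Wilson interval 72.9 to 81.2, 392 tags) and 83.3% (78.9 to 86.9, 329 tags) in KYSE30, and 73.7% (68.8 to 78.1, 346 tags) and 74.8% (70.6 to 78.6, 453 tags) in TE-1 cells. The KYSE30 control had the highest share, and the interval of each library overlapped that of the other library of its line. The proximal PAC was at 12.4 and 7.41 RPM in KYSE30, and at 10.7 and 11.0 in TE-1 cells, and the distal PAC was at 42.2, 36.9, 30.1 and 32.6 RPM in the same order. The distal share of SLC31A1 did not pass the limma test between lines (adjusted p = 0.227) or with l-lactate (adjusted p = 0.611, difference -0.32 ± 0.22 (SE) in the log2 ratio of distal to other tags, 95% interval -1.14 to 0.51). Of 2624 genes with 2 or more PACs, 15% were called between the lines and 0% with l-lactate, where 141 had an unadjusted limma p under 0.05. SLC31A1 and ATOX1 were the only members among them, and neither was called in either comparison. Shares were fitted apart from levels, with 1 residual degree of freedom and a prior of their own. The intervals were wide, for ATOX1 with l-lactate -0.49 to 1.13, so that a gene not called need not be unchanged.

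**Figure D2:**
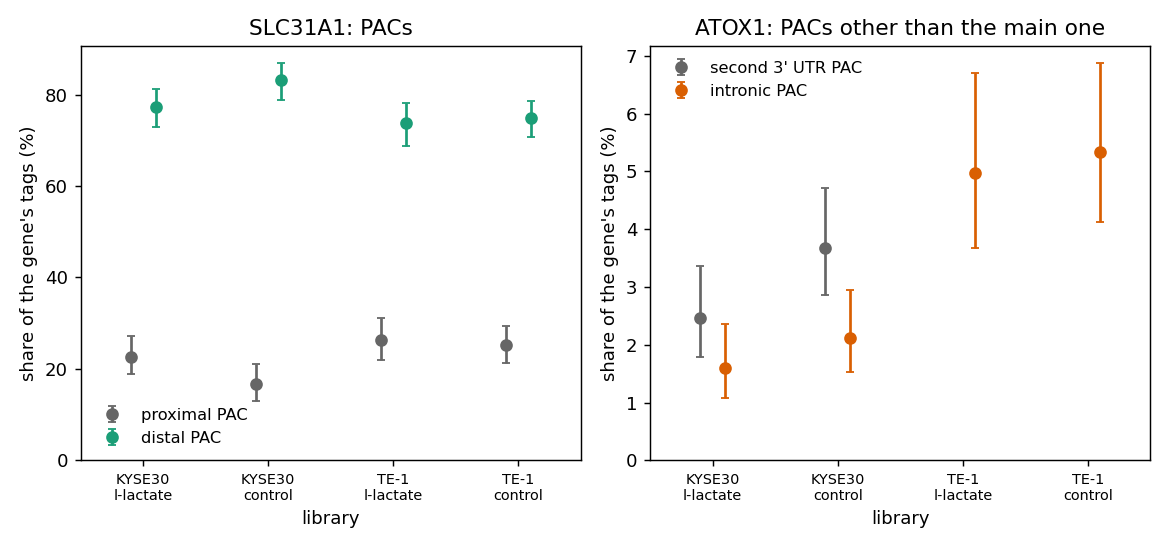
Share of a gene's tags in each PAC by library (%, with Wilson 95% intervals), for both PACs of SLC31A1 on the left and for the 2 minor PACs of ATOX1 on the right, where a PAC without a point was not listed. The distal PAC of SLC31A1 holds 73.7% to 83.3% of its tags, and the second 3′ UTR PAC of ATOX1 appears in KYSE30 alone.

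SLC31A2, a relative of SLC31A1 found mainly on internal membranes, had the largest line difference of the members. It was at 9.06 and 11.2 RPM in KYSE30 (65 and 83 tags), and at 2.36 and 1.92 in TE-1 cells (20 tags in each). Both KYSE30 libraries lay above both TE-1 libraries. The gene passed the filter of a mean of 5 RPM only through the KYSE30 libraries, where it is high, so that its test depends on that filter. With no filter its adjusted p was 0.00257 (limma). The difference was 1.82 ± 0.23 (SE) on the log2(RPM + 1) scale (3.53-fold, adjusted p = 0.000203 by limma), and this scale understates the change of so low a gene: the ratio of RPM was 5.81 (3.53 to 9.996) between the controls and 3.84 (2.29 to 6.69) between the l-lactate libraries. SLC31A2 and SLC31A1 lie near each other on the plus strand of chromosome 9, at 113150976 to 113164140 and 113221544 to 113264492 (GRCh38), and the first differed between the lines while the second was not called. Whether the 2 line differences differ was not tested. The site of SLC31A2 lay in exon 4 of 4, 1202 bases past the stop codon, and was the only member site with the second most common signal. Its last 30 bases, at chr9:113164090-113164119, are shown with that signal in capitals.
SLC31A2: gaATTAAAaacaaacaaatacattttagta
The tags of this PAC were spread over 23 bases, the widest of the 12, and 35.4% to 55.0% of them lay on the dominant base.

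The genes whose levels over the 4 libraries followed that of SLC31A2 most closely were SASH1, MPZL3 and NBR2. Their distances, in log2(RPM + 1) centred over the libraries, were 0.07, 0.11 and 0.11. With 4 libraries such likeness is common, and 1371 genes lay within a distance of 1.

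ATP7A, the copper pump used in most tissues, was at 11.2 and 12.3 RPM in KYSE30, and at 14.2 and 12.99 in TE-1 cells. Both TE-1 libraries were slightly higher, within counting error. The line difference was -0.20 ± 0.17 (SE), with an interval of -0.59 to 0.19 and an adjusted p of 0.313 (limma). Its single site, on chromosome X at 78049947, lay in exon 23 of 23 and 448 bases before the end of the main transcript, 23 bases from the end of the shorter ATP7A-207. It also lies in the annotated span of PGK1, the next gene on that strand, so that the tags could belong to a transcript of either. ATP7B, the pump of hepatocytes, had no listed PAC, which does not show that its RNA was absent.

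ATOX1, the chaperone of those pumps, was about 2 times as abundant in KYSE30 cells. Its summed level was 209.8 and 215.9 RPM in KYSE30, and 94.9 and 99.2 in TE-1 cells. The libraries of a line differed by less than their counting error. The line difference was 1.13 ± 0.07 (SE) on the log2 scale (2.18-fold, adjusted p = 4.17e-06 by limma).

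ATOX1 had 3 PACs, and the sequences before them are shown because 1 was listed in a single line and 1 lies at a pseudogene. They read on the minus strand of GRCh38: the main site at chr5:151742822-151742851 in exon 4 of 4, the second 3′ UTR site 1236 bases before it at chr5:151744058-151744087, and the intronic site at chr5:151765859-151765888.
ATOX1 main: ctgcAATAAAatcaagctgcttttgttgga
ATOX1 second: gtcaTATAAAaagaattacattatatgtga
ATOX1 intronic: tataatgtgttcAATAAAaagctgacttta
The main PAC held 94.2% to 96.0% of the tags in every library. It was at 201.3 and 203.4 RPM in KYSE30, and at 90.2 and 93.9 in TE-1 cells, so that it followed the level of the gene. The second PAC, which lies in the 3′ UTR of another ATOX1 transcript, was listed only in KYSE30 cells, at 5.16 RPM with l-lactate and 7.95 in the control, or 2.46% (1.79 to 3.37) and 3.68% (2.86 to 4.72) of the gene. The intronic PAC was at 3.35 and 4.58 RPM in KYSE30 and 4.72 and 5.29 in TE-1 cells, with all tags on 1 base. It also lies in the annotated span of RPLP1P6, a processed pseudogene, so that it may not be ATOX1 RNA. Its share of the tags was 1.60% to 2.12% in KYSE30 and 4.98% to 5.34% in TE-1 cells, while its own level in RPM differed less.
The distal share of ATOX1 differed by 0.10 ± 0.22 (SE) between the lines (adjusted p = 0.764 by limma). With 3′ UTR PACs alone the difference turned to -5.79 (adjusted p = 0.0166 by limma). The only other PAC left was then the one not listed in TE-1 cells. The direction was therefore fixed by the listing, and the size depends on the small tag count added to each side. For these reasons the test cannot say whether use of the second PAC differs between the lines. ATOX1 was also lower in TE-1 cells, where the lowest RPM listed was 1.06. What part the listing limit had was not tested.

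Of the other chaperones, mitochondrial COX17 was higher in TE-1 cells, and CCS, the chaperone of SOD1, did not pass the test. COX17 was at 105.6 and 85.1 RPM in KYSE30, and at 220.1 and 218.5 in TE-1 cells. Both TE-1 libraries were higher by far more than counting error. The line difference was -1.20 ± 0.09 (SE) on the log2 scale (2.30-fold higher in TE-1, adjusted p = 9.5e-06 by limma). Its site, in exon 3 of 3 and 137 bases past the stop codon, had a variant signal, shown on the minus strand at chr3:119669533-119669562.
COX17: gtaagaagaaAGTAAAatattactagtgga
CCS was at 27.3 and 32.7 RPM in KYSE30, and at 32.0 and 34.1 in TE-1 cells, and the lines overlapped. Its line difference was -0.14 ± 0.12 (SE), with an interval of -0.41 to 0.14 and an adjusted p of 0.322 (limma).

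The metallothioneins were higher in KYSE30 cells. MT2A was at 853.1 and 948.9 RPM in KYSE30, and at 491.1 and 415.5 in TE-1 cells. The difference between lines was 0.99 ± 0.09 (SE) on the log2 scale (1.99-fold, adjusted p = 3.31e-05 by limma). MT1E was at 440.3 and 543.9 RPM in KYSE30 and at 258.2 and 260.8 in TE-1 cells. Its difference was 0.91 ± 0.08 (SE) (1.88-fold, adjusted p = 2.56e-05 by limma). For both genes every KYSE30 library lay above every TE-1 library. MT1X was lower by far, at 6.97 and 5.66 RPM in KYSE30 cells (50 and 42 tags) and 3.54 and 1.83 in TE-1 cells (30 and 19 tags). The ratio of KYSE30 to TE-1 for MT1X was 3.09 (1.76 to 5.63) between the controls and 1.97 (1.23 to 3.20) between the l-lactate libraries, in the same direction as MT2A and MT1E, and it was not tested at the mean level required.

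Of the other 8 metallothionein genes only MT1F was listed, at 3.76 and 3.77 RPM in KYSE30 and at 0 in TE-1 cells. The metallothioneins together came to 1304 and 1502 RPM in KYSE30, and to 752.9 and 678.2 in TE-1. MT2A made up 61.3% to 65.4% of this sum and MT1E 33.8% to 38.5%. MTF1 itself, the metal-responsive activator of these genes, was listed at 0 in both KYSE30 libraries and at 4.02 and 3.27 RPM in TE-1, and was not tested at this low level.

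The ends of the 3 metallothionein members on the plus strand of chromosome 16 are shown because the genes of this family resemble each other closely and the tags come from these ends. The windows are chr16:56609468-56609497 for MT2A, chr16:56627082-56627111 for MT1E and chr16:56684167-56684196 for MT1X, with the signal in capitals.
MT2A: gtgaatgatAATAAAacagctttgacttga
MT1E: tgactgacAATAAAaacaattttgacttta
MT1X: atgtgaatggcAATAAAttcatctagacta
Over the last 150 bases of the annotated transcripts, MT2A and MT1E were 73.8% identical, MT2A and MT1X 69.3%, and MT1E and MT1X 69.6%. MT1E and MT1M were 91.5% identical there, with a longest shared run of 36 bases, so that MT1E tags could include some from MT1M, which had no PAC of its own. The level of MT1E is uncertain to that extent. The site of MT1X also lies in the span of a long noncoding RNA on its strand.

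**Figure D3:**
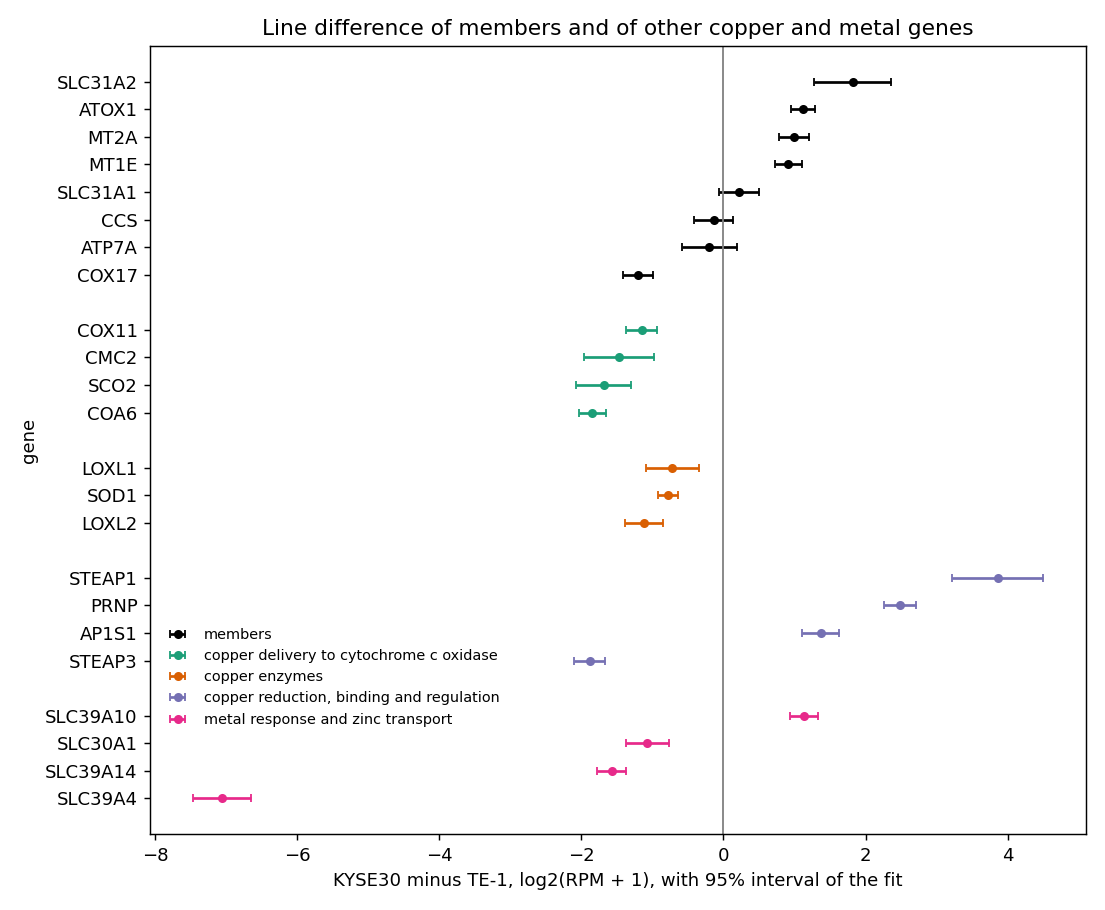
Difference KYSE30 minus TE-1 in log2(RPM + 1), with the 95% interval of the fit, for the 8 members tested (black) and for genes of 4 other lists named by rule (colours). SLC31A2, at 1.82, is the highest member and COX17, at -1.20, the lowest, while STEAP1 and SLC39A4 are listed at 0 in one line, so that their positions depend on the pseudocount.

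Other genes of copper handling were followed in lists made for this report. Of 12 genes beside COX17 that serve copper delivery to cytochrome c oxidase, 6 were higher in TE-1 cells, 1 in KYSE30 cells and 5 were not called, beside 36.2% and 36.5% of all genes in these directions, with a median line difference of -0.51 on the log2 scale, against 0.00 over all genes. COA6, an assembly factor of the copper site, was at 73.6 and 65.5 RPM in KYSE30 and 249.3 and 255.3 in TE-1 cells (l-lactate, then control; 3.60-fold). SCO2, a copper metallochaperone, was at 5.99 and 7.27 RPM against 23.3 and 23.8 (3.22-fold), and COX11, which inserts copper into the enzyme, was at 35.1 and 38.1 against 81.8 and 83.3 (2.22-fold). CMC2, a small mitochondrial protein, differed by 2.77-fold in the same direction but passed the filter on low values only through its TE-1 libraries (2.93 and 2.96 RPM in KYSE30, 9.21 and 10.7 in TE-1), and SCO1, at 0.65 on the log2 scale, was the gene higher in KYSE30. Folds given for these lists are from the fit on log2(RPM + 1), and they understate the change of low genes such as SCO2 and CMC2.

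Of 16 copper enzymes 4 were tested, and 3 were higher in TE-1 cells (36.2% of all genes) and none in KYSE30 cells (36.5%). SOD1, the client of CCS, was at 424.5 and 409.4 RPM in KYSE30 and 724.3 and 711.3 in TE-1 cells (1.72-fold), and the lysyl oxidases LOXL2 and LOXL1 were 2.17-fold and 1.65-fold higher. In copper reduction, binding and regulation, 6 of 15 were higher in KYSE30 and 4 in TE-1, shares near those of all genes (36.5% and 36.2%). PRNP, the copper-binding prion protein, was at 290.9 and 264.8 RPM in KYSE30 and 45.7 and 52.4 in TE-1 cells (5.58-fold). AP1S1, a subunit of the AP-1 adaptor of Golgi vesicles, was 2.58-fold higher in KYSE30 cells, and the metalloreductase STEAP3 was 3.69-fold higher in TE-1 cells. STEAP1 was at 17.3 and 10.5 RPM in KYSE30 and listed at 0 in both TE-1 libraries, so that it passed the filter only through KYSE30. In metal response and zinc transport, 4 of 17 were higher in KYSE30 (36.5% of all genes) and 8 in TE-1 (36.2%). The zinc importer SLC39A4 was at 124.7 and 141.8 RPM in TE-1 cells and listed at 0 in KYSE30 cells, and passed the filter only through TE-1. SLC39A14 was 2.97-fold higher in TE-1, as was the zinc exporter SLC30A1 by 2.10-fold, and SLC39A10 was 2.19-fold higher in KYSE30. The median line differences of these 3 lists were -0.75, 0.11 and -0.16.

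The l-lactate comparison asked whether 24 h of l-lactate moved these genes. None of the 8 tested members passed the limma test on the additive model, and none had an unadjusted p under 0.05. This model averages the changes of the 2 lines and counts their disagreement as error. Where the lines moved in opposite directions, a gene that was not called need not be unchanged in each line. MT2A, at -0.15 in KYSE30 and 0.24 in TE-1 on the log2 scale, is such a gene. Of all 9778 genes, 0.0511% were called and 930 had an unadjusted p under 0.05. The 5 genes called were all listed at 0 in both libraries of a condition and at up to 141 RPM in the other. The estimates for the members ran from -0.17 ± 0.12 (SE) for CCS to 0.16 ± 0.09 (SE) for COX17 on the log2 scale. The smallest adjusted p of the members was that of MT1E, at 0.577, with a difference of -0.16 ± 0.08 (SE) and an interval of -0.35 to 0.03. The 95% intervals of all 8 lay within a 1.5-fold difference either way on the log2(RPM + 1) scale, among them those of MT2A (-0.17 to 0.26), ATOX1 (-0.22 to 0.12), COX17 (-0.05 to 0.37) and SLC31A1 (-0.18 to 0.39), and the widest was that of SLC31A2 (-0.58 to 0.50). For SLC31A2 this scale understates changes. Its ratios of l-lactate to control in RPM were 0.811 (0.577 to 1.14) in KYSE30 and 1.23 (0.627 to 2.40) in TE-1. Both of these counting intervals reach past 1.5-fold. With only PACs listed in all 4 libraries the l-lactate count over all genes rose to 226 of 8915, or 2.54%, still with none of the 8 members, although MT1E then had an unadjusted p of 0.0311 (adjusted p = 0.323 by limma).

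Within each line there is 1 library per condition, so that the ratios of l-lactate to control have no replicate check. None of the 8 tested members passed 1.5-fold in either line, against 4.23% of genes in KYSE30 and 4.37% in TE-1. The counting interval lay off a ratio of 1 for 4 of the 8 members in KYSE30, against 24.1% of all genes, and for 1 in TE-1, against 30.4%. Deeply covered genes pass this mark with smaller ratios.

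In KYSE30 cells the importer SLC31A1 and the chaperone COX17 were higher with l-lactate, with ratios of 1.23 (1.06 to 1.43) and 1.24 (1.12 to 1.38). In TE-1 cells their ratios were 0.937 (0.813 to 1.08) and 1.01 (0.947 to 1.07). ATOX1 was at 0.972 (0.905 to 1.04) and 0.957 (0.872 to 1.05) in KYSE30 and TE-1 cells, CCS at 0.835 (0.688 to 1.01) and 0.940 (0.799 to 1.10), and ATP7A at 0.910 (0.665 to 1.24) and 1.09 (0.846 to 1.41). The 2 metallothioneins that were abundant were lower with l-lactate in KYSE30 cells, MT2A with a ratio of 0.899 (0.869 to 0.931) and MT1E with 0.809 (0.772 to 0.848). In TE-1 cells MT2A was higher, with a ratio of 1.18 (1.13 to 1.23), and MT1E was at 0.990 (0.935 to 1.05). MT1X, at 30 and 19 tags in TE-1 cells, had a ratio of 1.94 (1.06 to 3.64) there and of 1.23 (0.801 to 1.90) in KYSE30 cells. MT2A rested on 4159 to 7046 tags and MT1E on 2187 to 4039, so that their ratios are the firmest of the set as to counting.

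The ratio of MT2A to MT1E was higher in the l-lactate library than in the control of each line. It was 1.94 and 1.74 in KYSE30, and 1.90 and 1.59 in TE-1. With l-lactate it was 1.11 times (1.05 to 1.18) that of the control in KYSE30 and 1.19 times (1.11 to 1.28) in TE-1 cells. This ratio was chosen after its values were seen and was not tested across replicates.

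**Figure D4:**
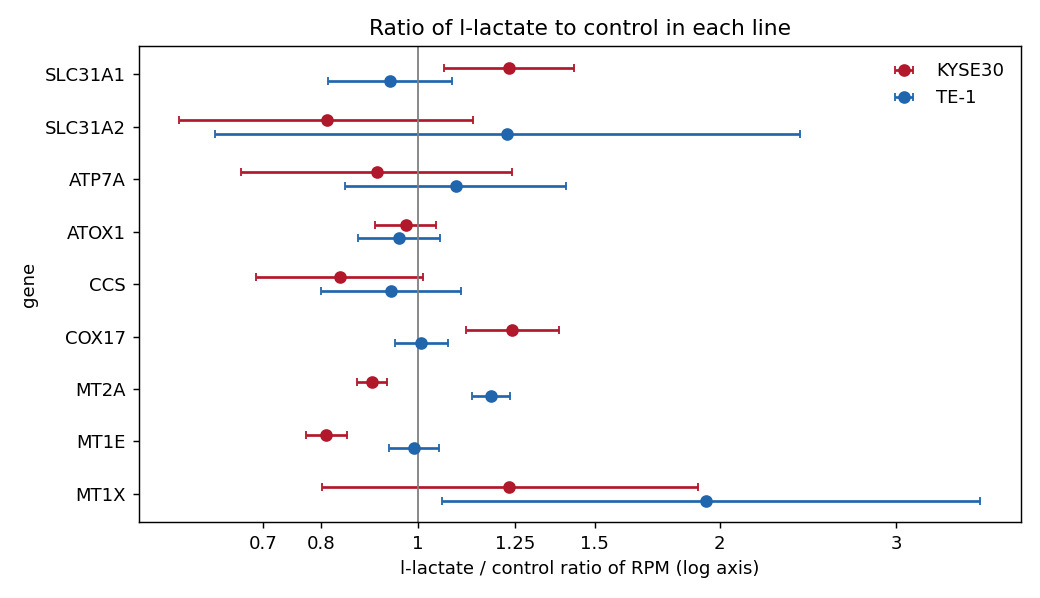
Ratio of l-lactate to control in RPM (log axis) for each gene with a PAC, in KYSE30 (red) and TE-1 (blue), with exact 95% intervals from the tag counts. MT2A lies on opposite sides of 1 in the lines, at 0.899 and 1.18, and the widest intervals belong to MT1X and SLC31A2, the genes with the fewest tags.

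None of the genes in the other lists was called with l-lactate in the main fit either, although CUTA and GLRX were with only PACs listed in all 4 libraries. Unadjusted limma p-values under 0.05 in the main fit occurred for 2 of 4 copper enzymes, 3 of 15 genes of copper reduction, binding and regulation, 6 of 17 of metal response and zinc transport, and none of 12 that serve cytochrome c oxidase, against 9.51% of all genes. The median l-lactate differences of these lists were 0.12, 0.03, 0.09 and 0.01, against -0.02 for the members and 0.02 for all genes.

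In every PAC of the members the dominant site was the same base in every library that listed it. The PACs were 1 to 23 bases wide, so that a dominant site could not lie far from another within its PAC. The spread of tags around the dominant base did vary. That base held 94.0% and 97.6% of the MT1X tags in KYSE30 and 70.0% and 68.4% in TE-1, on 19 to 50 tags a library, and this difference was not tested. For ATP7A the point midway between the quantile positions lay 1.5 bases upstream with l-lactate in KYSE30 and 2.0 bases downstream in TE-1. Of the 12 sites, 8 had AATAAA in the 50 bases upstream, 1 had ATTAAA and 3 had another variant, against 66.4%, 16.7% and 13.4% of all PACs. TGTA lay within 100 bases of 5 of the 12 sites, the distal site of SLC31A1 and those of SLC31A2, COX17, MT2A and MT1X, against 57.0% of all PACs. None of the 12 sites was followed by an A-rich stretch in the genome, which can prime a false 3′ end, against 1.62% of all PACs.

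The promoters of MT2A and MT1X hold several copies of the metal response element to which MTF1 binds. The core TGCACNC or TGCGCNC, on either strand, occurred 8 times in the RefSeq promoter of MT2A (GRCh38, 250 bases before to 50 after the start), as many as in 0.0256% of 27305 promoters, and 4 times in that of MT1X, as many as in 0.736%. It occurred 2 times in those of ATP7B, ATOX1 and CCS, once in that of COX17, and in none of the windows of SLC31A1 and ATP7A, while 33.4% of all promoters held at least 1. Of the other metallothioneins only MT1H, MT1B and MT4 had a matched promoter. That of MT1H also held 8, and those of MT1B and MT4 held 3 each. None of these genes had a listed PAC, and an unlisted PAC need not be low, so that their copies could not be set against level. The promoters of 8 of the 10 genes were matched, without those of MT1E and SLC31A2. A match of letters is a description and not a bound site.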

How the data were processed

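PAS-seq was done on 4 libraries, 1 per line and condition. The authors trimmed reads, aligned them to GRCh38 with HISAT2, called poly(A) sites with CAGEr, excluded low sites and joined nearby sites into PACs. The deposited values, called TPM there, are RPM: tags of a PAC per 1000000 tags of its library, with no length correction. Tags were inferred from the steps between RPM values, and all values came out whole within 0.001 RPM. The deposited tables give no tag totals and list no PAC under 8 tags, so the size of a step was not seen directly, and every counting interval rests on it. The tags served for counting intervals and for the log2 ratio of distal to other tags (0.5 tags added to each).

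Gene sums were tested as log2(RPM + 1) with limma 3.58.1 (R 4.3.3, trended variance), with line and treatment as terms, 1 residual degree of freedom and a prior of 6.58, for 9778 genes with a mean of at least 5 RPM. Calls had an adjusted p of at most 0.05. On simulated data for the l-lactate comparison, 191 of 200 genes changed 2-fold were found, with 10 false calls among 9778 genes. The simulation used a fixed small spread between libraries, the same change in both lines and no listing limit. It therefore does not give the power to find changes in the real libraries. The members and lists were chosen with earlier results of these data known. Named genes were all members, up to 4 per other list with the largest line difference among those past the test, and the 3 genes nearest to the member with the largest line difference. The plan also had up to 4 per list with the largest l-lactate effect among those past the test, or the 2 highest by mean level where none passed. No gene of the lists passed the l-lactate test in the main fit, and the genes of highest mean level were not added for it. CUTA, GLRX, SCO1 and MTF1 were named after their values were seen. Alternatives changed the pseudocount, filter, scaling, gene span, PACs used, prior and libraries.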

Additional observations from a re-analysis of the deposited data

Results flagged for a closer look

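MT2A was picked out because its ratio of l-lactate to control pointed in opposite directions in the lines. The ratio was 0.899 in KYSE30 cells (853.1 against 948.9 RPM) and 1.18 in TE-1 cells (491.1 against 415.5 RPM), and both counting intervals lay off 1. With 1 library per condition in each line, the difference between the lines was not tested.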

How the results depend on the processing

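The line calls of ATOX1, MT2A, MT1E and COX17 held under every alternative run, and that of SLC31A2 under all but a minimum mean of 20 RPM, which drops it (4 members called). With no filter 6 members were called, with MT1X added (1.02 on the log2 scale, adjusted p = 0.0164 by limma). No member was called with l-lactate under any alternative. The count of genes called between lines was 7104, and 4337 to 4745 when a library was left out and the treatment term dropped (the line left with a single library is then assumed to vary like the other, which alone gives the spread), with 4496 without the KYSE30 l-lactate library and 4337 without the KYSE30 control. The l-lactate count of 5 became 33 with a pseudocount of 5, 13 with a mean of at least 20 RPM, 3 with spans extended by 1000 nt and 226 when PACs missing from any library were dropped. In that last fit, whose prior degrees of freedom were infinite, GLRX (0.54, adjusted p = 0.0412) and CUTA (-0.31, adjusted p = 0.0154) of the copper lists were called by limma. Genes past 1.5-fold within KYSE30, 414, became 159 with a pseudocount of 5 and 265 with PACs listed in all libraries, and within TE-1, 427 became 184 and 277. The cause of these moves was not tested. The ATOX1 distal share turned from 0.10 to -5.79 with 3′ UTR PACs only, for the reason given above. The planned count models were not run, since the inferred tags did not meet the requirement for recovered reads. The l-lactate fit is paired within line by its line term, and no further replicate block was possible because each line and condition has a single library. Depth limits MT1X and SLC31A2 most, at 19 to 83 tags.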
